A study of Caenorhabditis elegans with 2 samples.

Results

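The Caenorhabditis elegans genes named vps (vacuolar protein sorting), snx (sorting nexin) and vha (vacuolar H+-ATPase) were examined for binding of the zinc finger transcription factor LSY-2. Membership was set by gene symbol alone, which gave 60 nuclear protein-coding genes of 19973, comprising 33 vps, 7 snx and 20 vha genes. The families themselves were picked with earlier results of these data known. Binding was measured by chromatin immunoprecipitation followed by sequencing (ChIP-seq) in 1 group of animals with 2 biological replicates. The animals were whole larvae of the second larval stage (L2), of mixed sex and of unknown age, from the strain OP367. That strain carries the allele unc-119(tm4063) on chromosome III and the integrated transgene wgIs367, which adds a copy of LSY-2 with GFP and FLAG tags at its C-terminal end. The promoter that drives the transgene, and whether the animals keep an untagged lsy-2 gene, are not stated in the labels. Chromatin came from all tissues together, so a peak has no tissue of origin in these data, and no group without the tagged protein was used here.

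Endosomes and lysosomes are the compartments in which a cell sorts, returns or degrades membrane proteins. ESCRT complexes push ubiquitinated receptors into vesicles inside the endosome, retromer and sorting nexins return cargo to the Golgi or the cell surface, and the HOPS and CORVET tethers bring endosomes and lysosomes together for fusion. The V-ATPase is the proton pump that acidifies these compartments. Its cytosolic V1 sector burns ATP, and its membrane sector V0 carries protons. In the worm, V-ATPase subunits are also known from the excretory cell, the epidermis and the intestine.

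LSY-2 peaks were found at most of these genes. The authors' optimal list holds the peaks kept by the irreproducible discovery rate (IDR) procedure, which compares replicates, and their relaxed lists hold weaker peaks and background too. A gene was taken as bound when the summit of a peak in the authors' optimal list lay between 1000 bp upstream and 200 bp downstream of its annotated 5′ end. By this rule 35 of the 60 genes (58.3%) were bound, against 19.2% of all nuclear protein-coding genes. The vps genes were bound in 20 of 33 cases (60.6%, exact Clopper-Pearson 95% interval 42.1 to 77.1), the vha genes in 12 of 20 (60%, interval 36.1 to 80.9) and the snx genes in 3 of 7 (42.9%, interval 9.90 to 81.6). The interval of the sorting nexins is wide enough to include both the share of the other families and that of all genes. The intervals cover the counting of genes only. No test was made between the families or against other genes, because genes are not biological replicates and these families were picked with earlier results of the data known.

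Each peak has a score from the authors' peak caller, and nothing used here states its scale, so it serves to rank peaks within a list. Scores of the optimal list and of the replicates are on different scales, and only ranks are compared between lists. Scores in the optimal list of 6312 peaks ran from 58 to 20472, with a median of 123. The strongest promoter peak of the 35 bound genes had a median score of 242, and that of all 3831 bound protein-coding genes had a median of 200. Scores at the bound members ran from 61.9 at vps-20 to 2075 at vps-25. In the strongest 10% of the optimal list were the peaks of 13 members (37.1% of those bound), compared with 20.1% of all bound genes. Only vps-20 had its peak in the weakest 10%. By family the median score was 304 for vps, 290 for snx and 241 for vha, and the ranges of the families overlapped.

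**Figure D1:**
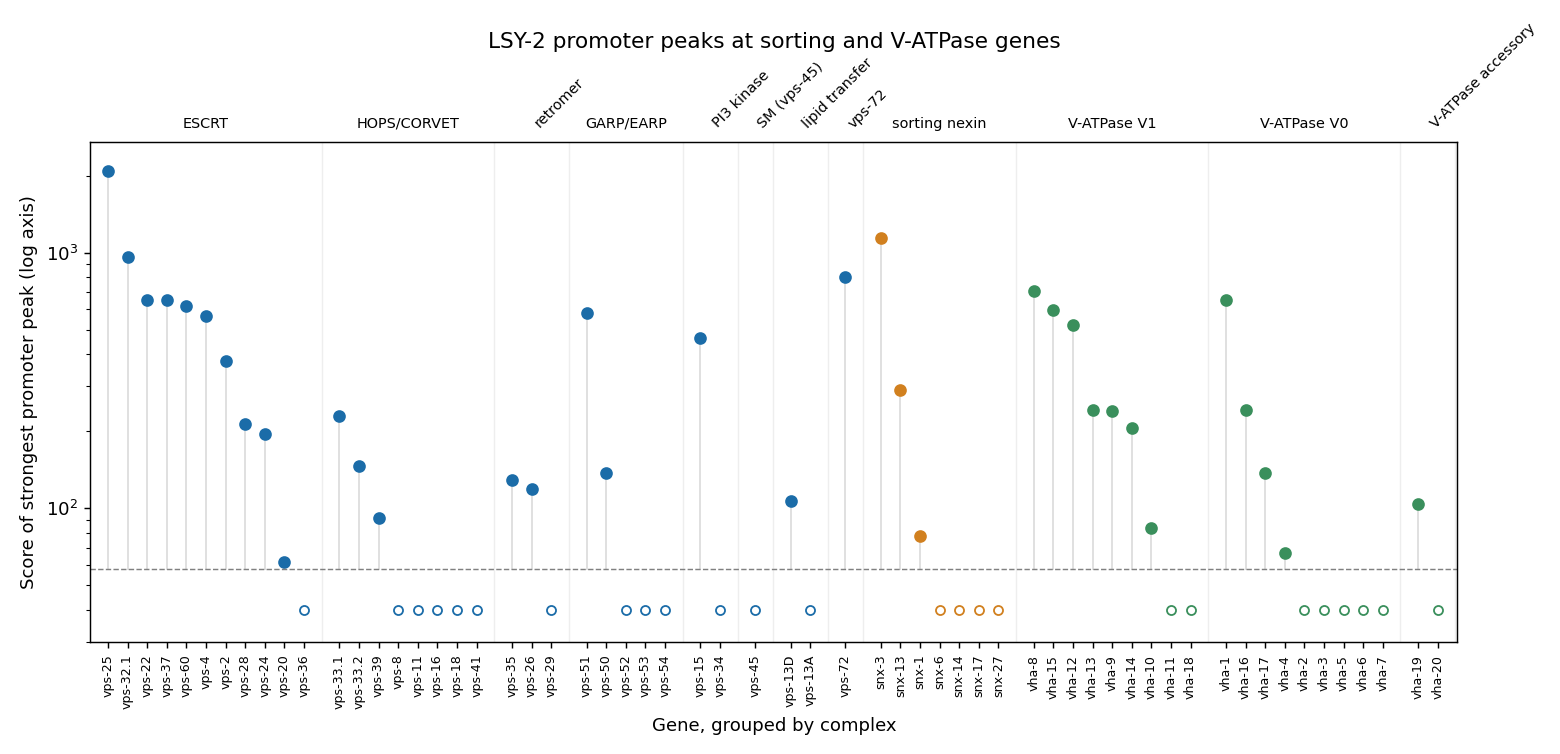
Score of the strongest promoter peak in the optimal list (vertical log axis, peak caller's units) for each of the 60 genes (horizontal axis), grouped by complex and coloured by family (blue vps, orange snx, green vha). Open circles below the dashed line at 58, the lowest score in the list, are genes with no optimal promoter peak and have no score. Filled circles stand for 10 of 11 vps-named ESCRT genes and 3 of 8 HOPS and CORVET genes, against 19.2% of all genes.

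Of the ESCRT genes with a vps name, 10 of 11 were bound, with a median score of 591. ESCRT genes under other names are not in this count, and of those listed further on hgrs-1, stam-1, tsg-101 and ist-1 had no promoter peak. ESCRT-II was represented by vps-25 and vps-22, whose peaks scored 2075 and 654, while its remaining subunit gene, vps-36, had no promoter peak. The ESCRT-I genes vps-37 and vps-28 scored 651 and 213. Among the genes for ESCRT-III, the filament that pinches off the vesicle, scores were 961 at vps-32.1, 378 at vps-2, 196 at vps-24 and 61.9 at vps-20. The gene vps-4, whose ATPase takes the filament apart, scored 566, and the ESCRT-III-like gene vps-60 scored 617. Of the members, vps-2 alone held more than 1 optimal summit in its promoter, the second with a score of 83.8.

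The strongest vps peak lay at the ESCRT-II gene vps-25 (chromosome I, 12733287 to 12741275, minus strand). Its summit fell on the first annotated base of the gene, in a peak from 12741007 to 12741542. The score was 1146 in replicate 1 and 943 in replicate 2, with ranks of 113 and 112. All gene positions are those of build ce11 (WBcel235). Next came vps-32.1 (chromosome II, 6589708 to 6591084, plus strand), with scores of 513 and 448 and ranks of 266 and 242 in the replicates. Its summit was 649 bp upstream, the farthest of any bound member. The third was vps-72 (chromosome I, 9422556 to 9431120, plus strand), with scores of 454 and 352, ranks of 300 and 326, and a summit 184 bp upstream. Although it carries the vps name, its yeast and mammalian relatives belong to a chromatin remodelling complex that exchanges histone H2A.Z. Without it the vps count was 19 of 32 (59.4%) and the vps median score was 230 in place of 304. Outside the promoter window, the bodies of vps-25, vps-4 and snx-13 held 1 further optimal summit each and that of vps-72 held 2.

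Genes of the tethering complexes had a peak in a smaller share than the ESCRT genes. Of 8 HOPS and CORVET genes, 3 had a promoter peak (37.5%, interval 8.52 to 75.5), against 19.2% of all genes. The scores were 230 at vps-33.1, 146 at vps-33.2 and 91.4 at vps-39. The genes vps-33.1 and vps-33.2 are homologs of VPS33A and VPS33B, which act in membrane fusion, and vps-39 encodes a HOPS subunit. The remaining ones, vps-8, vps-11, vps-16, vps-18 and vps-41, had none. In retromer, which retrieves cargo from endosomes, vps-35 scored 130 and vps-26 scored 119, and vps-29 had no peak. Among the GARP and EARP genes, which encode tethers for vesicles going to the Golgi and for recycling, vps-51 scored 580 and vps-50 scored 138, while vps-52, vps-53 and vps-54 had none. The lipid kinase regulator gene vps-15 scored 462, but the gene of its catalytic partner, vps-34, had no promoter peak. Of the lipid transfer genes, vps-13D scored 106 and vps-13A had none. The SM protein gene vps-45 also had none. These complexes hold 1 to 11 genes each, and no difference between them was tested.

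Among the sorting nexins, snx-3, snx-13 and snx-1 were bound, and snx-6, snx-14, snx-17 and snx-27 were not. The gene snx-3, which acts with retromer in returning the Wnt carrier MIG-14 in the worm, had the second strongest peak of all members (chromosome I, 9063278 to 9064403, minus strand). The score was 1138 in the optimal list, 627 in replicate 1 and 509 in replicate 2, with ranks of 217, 216 and 212, and the summit lay 370 bp upstream. At snx-13 (chromosome IV, 17078820 to 17087438, minus strand) the scores were 290, 139 and 160 and the ranks 1190, 1464 and 934, with the summit 210 bp upstream. At snx-1 (chromosome X, 1128986 to 1132711, plus strand), whose relatives form a coat with retromer, the scores were 77.6, 47.3 and 30.8 and the ranks 4834, 4664 and 5975, with the summit 308 bp upstream. The bound nexins thus included a peak near the top and a peak near the bottom of the members' scores.

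In the V-ATPase, genes of the V1 sector were bound in 7 of 9 cases and those of the V0 sector in 4 of 9. The intervals, 39.99 to 97.2 for V1 and 13.7 to 78.8 for V0, overlap, and the share of all genes was 19.2%. The difference between the sectors was not tested. The V0 gene unc-32, described below, had a peak but is outside this count. The V1 genes were vha-8 (subunit E, score 709), vha-15 (H, 598), vha-12 (B, 522), vha-13 (A, 242), vha-9 (F, 239), vha-14 (D, 206) and vha-10 (G, 83.5). The subunit A and B genes encode the ring that binds ATP. Without a promoter peak were vha-11 (C) and vha-18, which is the other gene for subunit H. The bound V0 genes were vha-1 (subunit c, 652), vha-16 (d, 243), vha-17 (e, 137) and vha-4 (c″, 66.7). Of the accessory genes vha-19 scored 104 and vha-20 had no peak.

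The strongest V-ATPase peak, at vha-8 (chromosome IV, 6791074 to 6792455, plus strand), scored 404 in replicate 1 and 305 in replicate 2, with ranks of 357 and 399. At vha-1 (chromosome III, 9781254 to 9781763, plus strand) the replicate scores were 361 and 287 and the ranks 409 and 428. At vha-15 (chromosome X, 2237911 to 2240255, plus strand) they were 338 and 259, with ranks of 442 and 488. The summits lay 455, 447 and 304 bp upstream. Each of these peaks held a similar rank in both replicates.

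Genes for alternative forms of a V-ATPase subunit did not all have a peak. Subunit a, which forms part of the proton path of V0, is encoded in the worm by vha-5, vha-6, vha-7 and unc-32. The first 3, known from the epidermis and excretory cell, the intestine, and the epidermis, had no promoter summit in the optimal list, in the pooled relaxed list or in either replicate's relaxed list. Their nearest optimal summits were 14187, 1900 and 2950 bp away. The fourth, unc-32, which is not a member by name, had a peak with a score of 302 at 214 bp upstream. For subunit H, vha-15 had a peak and vha-18 had no summit in any of the 4 lists. For the subunit c ring, vha-1 and vha-4 were bound in the optimal list and vha-2 and vha-3 were not. Whether a small group of cells binds at the unbound genes cannot be read from whole animals.

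The replicates gave most members' peaks similar ranks, as they did the peaks of all bound genes. Bound genes were defined by a list from a procedure that compares replicates, which by itself favours similar ranks. Even so, not every peak of that list had a summit within 200 bp in both replicates. Of all 3831 bound genes, 3789 were matched in both. A replicate's summit within 200 bp was found in both replicates for 34 of the 35 bound genes, and 32 of 35 (91.4%) were among the 6312 strongest peaks of both, against 88.2% of all bound genes. The ratio of the larger to the smaller rank had a median of 1.15, compared with 1.19 for all bound genes. It was largest at vps-20, which ranked 4681 in replicate 1 and 14090 in replicate 2 with scores of 47.1 and 13.2. At vps-2 the ranks were 1433 and 561, and at vha-14 they were 2802 and 1293. The gene vps-50 had no summit in replicate 1 within 200 bp, the nearest being 5789 bp away, and ranked 2725 in replicate 2. At vha-4 the ranks were 6812 and 5299. The bound status of vps-20, vps-50 and vha-4 thus rested on a peak that was among the strongest of 1 replicate only. With no read counts in the files used here, the depth of the libraries is unknown.

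**Figure D2:**
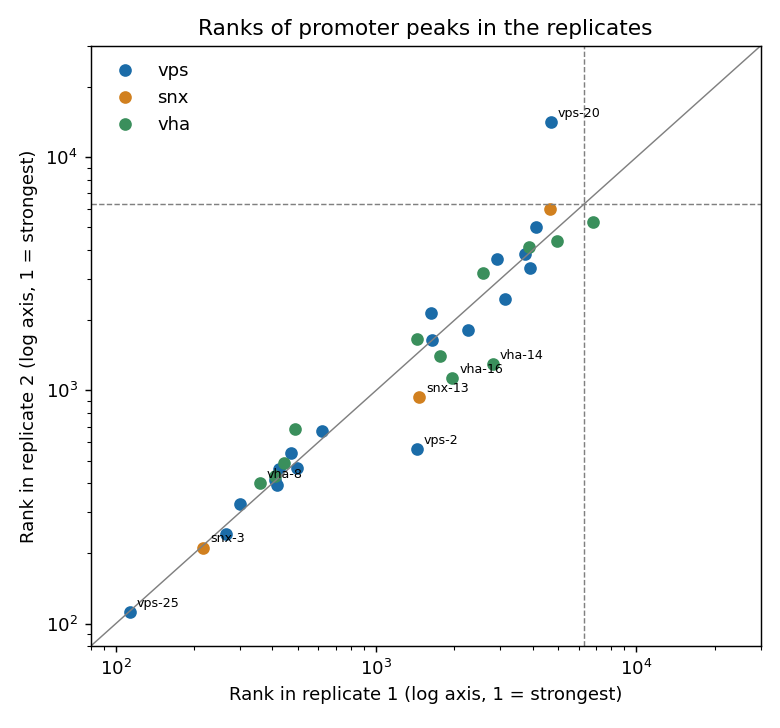
Rank of the strongest promoter peak of each bound gene in the relaxed list of replicate 1 (horizontal log axis) and replicate 2 (vertical log axis), with 1 as the strongest, for the 34 genes matched in both. The solid line marks equal ranks and the dashed lines rank 6312. Points lie along the line from vps-25, ranks 113 and 112, to the weakest peaks, with vps-20 beyond the dashed line of replicate 2 and vha-4 beyond that of replicate 1.

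Summits lay just upstream of the members, at a median of 230 bp before the 5′ end, which is the same median as for all bound genes. At 30 of 35 bound genes (85.7%) the summit was between 0 and 500 bp upstream, compared with 73.4% of all bound genes. The median was 183 bp for vps, 345 bp for vha and 308 bp for snx. All vha summits lay between 124 bp (vha-4) and 569 bp (vha-13) upstream. The vps summits spread from 20 bp downstream at vps-20 to 649 bp upstream at vps-32.1. Among the ESCRT genes the distance was 181 bp at vps-37, 335 bp at vps-60, 615 bp at vps-22, 267 bp at vps-4, 255 bp at vps-2, 194 bp at vps-28 and 22 bp at vps-24. In the other vps complexes it was 159 bp at vps-33.1, 310 bp at vps-39, 13 bp at vps-26, 29 bp at vps-33.2, 40 bp at vps-50, 125 bp at vps-13D and 511 bp at vps-15. For the V-ATPase it was 329 bp at vha-12, 213 bp at vha-16, 214 bp at vha-9, 136 bp at vha-14, 488 bp at vha-17, 361 bp at vha-19 and 447 bp at vha-10. Most V-ATPase summits thus sat well upstream, and those at vps-25, vps-20, vps-24, vps-26, vps-33.2 and vps-50 sat closest to the gene. Many worm transcripts are trimmed by trans-splicing and some gene models begin at the start codon, so an annotated 5′ end can lie inside the true transcript.

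**Figure D3:**
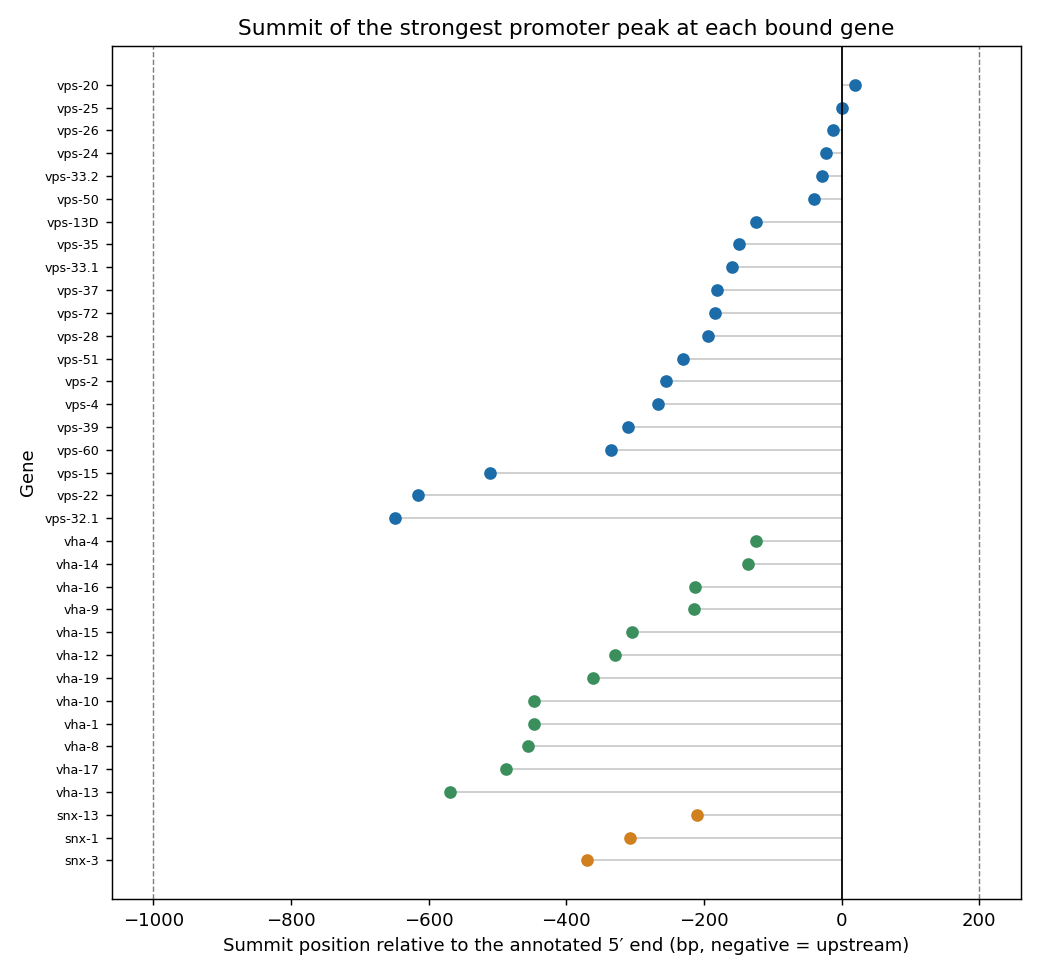
Position of the summit of the strongest optimal promoter peak relative to the annotated 5′ end (horizontal axis, bp, negative values upstream) for each of the 35 bound genes (vertical axis; blue vps, green vha, orange snx). The dashed lines are the limits of the promoter window, 1000 bp upstream and 200 bp downstream. Every vha and snx summit is at least 124 bp upstream, whereas 6 vps summits lie within 40 bp of the 5′ end.

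Many of these peaks were shared with a second promoter. At 17 of the 35 bound members (48.6%) the summit also lay in the promoter window of another protein-coding gene, close to the 47.9% of all bound genes. The other gene's 5′ end was the nearer one at 8 of the 17. Thus the vps-51 summit, 230 bp from vps-51, was 188 bp from lin-35, the worm retinoblastoma gene. The vha-8 summit was 131 bp from C17H12.2, the vps-22 summit 64 bp from C27F2.9 and the vps-15 summit 150 bp from hmg-12. At vps-32.1 the partner was icd-1, 404 bp away, at snx-3 it was rad-54.L, 306 bp away, at vps-2 it was tiar-2, 214 bp away, and at vha-17 it was F49C12.12, 224 bp away. At the other 9 the member was nearer, namely vps-25 (with uba-2), vps-72 (pabp-2), vps-24 (eif-1 and pigb-1), vps-20 (eif-4A3), vps-33.1 (sdz-1), vps-50 (cey-4), snx-13 (snr-1), vha-1 (sqv-3) and vha-4 (T01H3.5). Among these partners, eif-1 and eif-4A3 encode a translation initiation factor and an exon junction component, pabp-2 a poly(A)-binding protein and snr-1 a spliceosomal Sm protein. Which gene of such a pair a peak acts on is not measured by ChIP-seq. The remaining 18 members had a peak in their own promoter only, 8 of them vha genes.

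The share of bound members was higher beside a divergent neighbour than beside one on the same strand. Of the members whose nearest upstream neighbour is transcribed away from them, 22 of 28 were bound, against 27.6% of all genes so arranged. For the vps genes this was 13 of 14, the exception being vps-18. Members with a neighbour on the same strand less than 500 bp upstream, as in worm operons, were bound in 6 of 16 cases, against 14.6% of all such genes. With a same-strand neighbour at 500 bp or more the count was 5 of 14, against 12.2%. The genes vps-22 and vps-33.2, whose 5′ end lies inside another gene, were both bound, against 13.2%. The share of members in close same-strand position was 26.7%, compared with 17.7% of all genes. In each arrangement the members' share was above that of all genes so arranged. The differences were not tested.

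**Figure D4:**
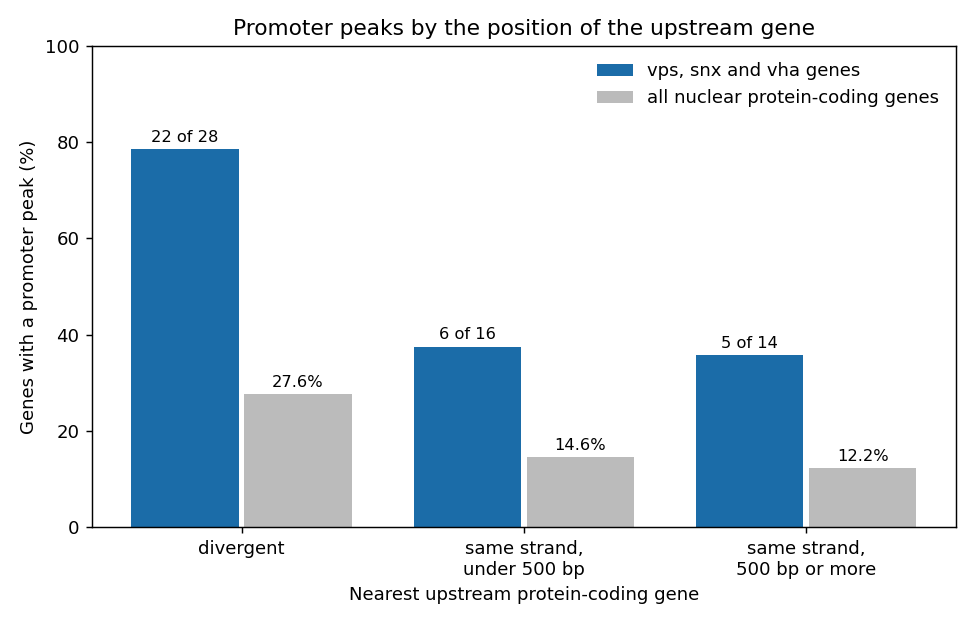
Percentage of genes with a promoter peak (vertical axis) by the orientation and distance of the nearest upstream protein-coding gene (horizontal axis), for the vps, snx and vha genes (blue, counts above the bars) and all nuclear protein-coding genes (grey). The members' bars are the higher in all 3 arrangements shown. Single bars are shares of 14 to 28 members, and error bars are not drawn because genes are not replicates.

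Several members in close same-strand positions, such as those of HOPS and CORVET, had no peak of their own but had one at the first gene of the run. A run was followed upstream as long as the next gene was on the same strand with a gap of less than 500 bp. The first gene had a promoter peak for 10 of the 16 members so placed, against 37% of all such genes. For vps-8 this was tag-335 with a score of 186, for vps-11 the nucleoporin gene npp-19 with 367, for vps-16 txdc-9 with 465, for vps-29 nuaf-7 with 142 and for vps-54 erh-1 with 354. For vha-2 it was vha-1, which ends 401 bp before vha-2 begins, and for vha-20 it was sym-4 with a score of 462. No peak lay at the first gene above vps-34, vps-41 or vps-53. Counting a peak at the gene itself or at the first gene of its run, 42 of the 60 members (70.0%) had one, against 24.3% of all genes. On this count HOPS and CORVET had 6 of 8, retromer 3 of 3 and ESCRT 10 of 11. Assignment to the first gene of a run was added after seeing the data. Whether these runs are transcribed as operons was not tested.

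The opposite case was also seen, with a summit inside a run. The retromer gene vps-35, which begins 191 bp after egc-3, had its own summit 149 bp upstream, and the first gene of its run, tsp-18, had none. The ESCRT-I gene vps-28 and the V1 gene vha-9 had their own peaks as well, with no peak at the first genes Y87G2A.13 and gcy-4. The peak of vha-13 (score 242, 569 bp upstream) and that of the gene above it, cept-2 (918), were separate. At vha-10 and vps-26 a peak lay both at the gene and at the first gene of its run, xrep-4 and pezo-1. The summits of vha-13 and vha-10 (447 bp upstream) did not lie in the gap to the gene above. That gap is 227 bp to cept-2 and 104 bp to trpp-8, so both summits were past the 3′ end of that gene.

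The members lay on all nuclear chromosomes, and on each the share bound was above that of all genes there. It was 9 of 12 on chromosome I, against 28.2% of all genes, 9 of 13 on II (18.9%), 5 of 9 on III (31.3%), 5 of 10 on IV (17.8%), 4 of 8 on V (11.5%) and 3 of 8 on X (14.2%). On X vha-12, vha-15 and snx-1 were bound, and vps-41, vps-45, vps-52, snx-17 and vha-20 were not.

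The 25 unbound members were nearer to LSY-2 peaks than unbound genes in general. Their nearest optimal summit lay at a median of 2950 bp, compared with 10802 bp for all unbound genes, and was within 3000 bp at 13 of 25 (52%), compared with 16.9%. The closest misses were vha-3, with a summit 1011 bp upstream, vps-36 at 1086 bp, vps-13A at 1148 bp and vps-16 at 1298 bp. A summit lay 1157 bp downstream of the vha-2 5′ end. No bound member had its summit beyond 649 bp upstream, so no member lay close to the outer limit of the window on its inner side. Within 3000 bp also lay the nearest summits of vps-29 (1820 bp), snx-6 (1855), vha-6 (1900), snx-27 (2246), vha-11 (2389), vps-54 (2713), vps-8 (2726) and vha-7 (2950). Farther off lay those of vps-53 (4485 bp), vps-52 (4524), vps-18 (4834), vps-11 (5166), vha-20 (5367), vps-45 (5907) and vps-34 (9735). The most distant were snx-14 at 36253 bp, snx-17 at 15709 bp, vha-18 at 15300 bp, vps-41 at 14494 bp and vha-5 at 14187 bp. These distances are not all to separate peaks, as vha-3 and vha-11 had the same nearest summit. At vps-8, vps-11, vps-16, vps-29, vps-54 and vha-20 it was the peak of the first gene of the run, given above. The difference from other unbound genes was not tested.

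Below the cutoff of the optimal list, the relaxed lists of 30000 peaks held a promoter summit in both replicates for 8 of the 25 unbound members (32%), against 14.6% of all genes with no optimal promoter peak. They held one in neither replicate for 12 (48%), against 73.4% of those genes. The strongest by pooled score were vps-18 (40.2, rank 8861), vha-11 (35.3, rank 10029) and snx-27 (27.7, rank 12561). At vha-11 the replicates scored 12.5 and 27.8. At vps-45 replicate 2 had a summit with a score of 56.1 and a rank of 3304, 15 bp downstream of the 5′ end, while replicate 1 had none. At vha-2 the replicates ranked a promoter summit 20270 and 5859. The lists include background peaks by design, so a weak entry is no evidence of binding.

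The DNA at the summits is shown for 1 well-bound gene of each family, vps-32.1, snx-13 and vha-8, because short motifs recur in such windows. Each window is the summit base with 50 bases on either side, read 5′ to 3′ on the coding strand of the gene, on build ce11 (WBcel235) from RefSeq. Capitals mark matches, on either strand, to the 6-mer ACGCAG, to the 6-mer ACCGTA, to the 6-mer GAGAGA or to a split element made of TGCA and CGCTC separated by 4 bases. A window counted once for a motif however many matches it held, and matches could overlap. The vps-32.1 window (chrII:6589009-6589109, plus strand) overlaps a pair of annotated non-coding RNA genes. The snx-13 window (chrIV:17087598-17087698, minus strand) and the vha-8 window (chrIV:6790569-6790669, plus strand) overlap no annotated exon.
vps-32.1: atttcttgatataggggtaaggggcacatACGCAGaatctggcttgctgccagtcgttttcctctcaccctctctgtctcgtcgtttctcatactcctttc
snx-13: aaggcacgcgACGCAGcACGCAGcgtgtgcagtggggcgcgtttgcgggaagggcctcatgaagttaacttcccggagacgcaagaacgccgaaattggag
vha-8: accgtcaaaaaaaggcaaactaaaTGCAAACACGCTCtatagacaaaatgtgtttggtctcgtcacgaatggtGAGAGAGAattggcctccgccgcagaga

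The element of TGCA and CGCTC separated by 4 bases was chosen after the windows of the members had been seen, so its share among them is a description and supports nothing by itself. It was in 9 of the 36 member promoter summit windows (25%), in 5.17% of the 3018 promoter summit windows outside the members and in 2.90% of all optimal windows. In windows of the same length centred 300 bp to either side of promoter summits the share was 0.278%. Of all 19973 promoters of 1201 bp, 600 held the element, as did 10 of the 35 bound and 1 of the 25 unbound members. The windows were at vha-8, vha-1, vha-14, vha-19, vps-35, vps-26, vps-72, snx-1 and the weaker peak of vps-2, and the centre of the element lay at a median of 20 bp from the summit.

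The element is printed with 8 bases on each side for the windows that hold these flanks whole, except that of vps-72, which is not shown. It is turned so that TGCA reads first, with its 2 parts in capitals. The coordinates are chrIV:6790585-6790613 for vha-8, chrIII:9780764-9780792 for vha-1, chrIII:9507952-9507980 for vha-14, chrII:5907651-5907679 for vps-35, chrIV:9341769-9341797 for vps-26, chrIV:3368846-3368874 for vha-19 and chrX:1128661-1128689 for snx-1. All are on the plus strand but that of vps-26, which is on the minus strand and runs into the first coding exon. The others overlap no annotated exon.
vha-8: aaactaaaTGCAaacaCGCTCtatagaca
vha-1: aataataaTGCAagttCGCTCcactgcat
vha-14: acaagactTGCAaactCGCTCtattgaaa
vps-35: tttaccagTGCAattgCGCTCtatcgtac
vps-26: agggggtaTGCAagagCGCTCcattgcga
vha-19: cagcgctgTGCAaacgCGCTCcacgacat
snx-1: ctaacaagTGCAagcgCGCTCcgctgcac

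In these 7 windows the element, read from TGCA to CGCTC, was on the coding strand of the member. At vha-8 and vha-1 the peak was shared with a divergent gene, C17H12.2 and sqv-3, for which the element is on the opposite strand. No strand share over other promoter windows is given here, so no preferred orientation can be read from these 7. The strand of the elements at vps-72 and vps-2 is not given here. At vha-1 and vha-8 the peak is strong, with scores of 652 and 709, and at snx-1 it is weak, with 77.6.

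The 6-mers were chosen from earlier results on these data. ACGCAG was in 10 of 36 member windows (27.8%), compared with 16.2% of all promoter summit windows and 1.98% of flanks. It was found at vps-32.1, vps-72, vps-37, vps-60, vps-33.2, snx-13, vha-1, vha-15, vha-12 and vha-19. ACCGTA was in 4 of 36 windows, compared with 8.81% of all promoter summit windows and 2.59% of flanks, at vps-25, snx-3, vha-1 and vps-15. GAGAGA was in 5 vha windows and no vps or snx window (13.9% of 36, compared with 22.7% and 5.83%), which were those of vha-8, vha-15, vha-16, vha-9 and vha-14. In whole promoters the 6-mers are common, with ACGCAG in 23.9%, ACCGTA in 28.6% and GAGAGA in 50.9% of all promoters. The median GC content of the member windows was 44.6%, equal to that of all promoter summit windows, while the flanks of the members had 31.7%. A motif match is a description of the letters and not evidence that LSY-2 contacts them.

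Other genes of the endosome and lysosome pathway, listed by function and not by name, were bound at a similar share. Of 40 listed genes 39 matched a symbol, and 21 of the 39 (53.8%) had a promoter peak, against 19.2% of all genes. Their median score was 266. The strongest were rab-11.1 (2853), ccz-1 (689) and rab-7 (652), whose products are a recycling GTPase, part of the factor that activates RAB-7, and RAB-7 itself, the GTPase of late endosomes. The early endosome GTPase gene rab-5 scored 373, the lipid kinase gene ppk-3 scored 313 and hlh-30, the worm homolog of the lysosomal regulator TFEB, scored 193. Among the ESCRT partners, mvb-12, did-2 and alx-1 had a peak, and the cargo-binding genes hgrs-1 and stam-1, and tsg-101 and ist-1, had none. The second V-ATPase B subunit gene, spe-5, scored 121. The 18 listed genes without a peak also included the GTPase genes rab-10 and rab-35, and rme-1, rme-8 and sand-1. The others were mtm-3, cup-5, glo-1, bec-1, lmtr-2, lmtr-5, raga-1, mig-14 and let-363.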

How the data were processed

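ChIP-seq peak lists on build ce11 were used for 2 biological replicates of 1 group. Per the labels' file descriptions, relaxed lists of 30000 peaks were made by the authors from each replicate and from both pooled, against a control not analysed here, and the optimal list of 6312 peaks followed by the IDR procedure. No aligner, peak caller or IDR threshold is named there. The score is the authors' own value per peak as deposited. The same lists on ce10 were not used. Depth is unknown because the files hold no counts.

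Genes came from Ensembl release 115 (WBcel235), with RefSeq symbols for 19965 of 19973 nuclear protein-coding genes. The summit was column 2 plus column 10. Summits matched within 200 bp, and motif windows spanned 50 bases on either side. Upstream neighbours were protein-coding genes. Python 3.11.15 and SciPy 1.17.1 were used. Members and lists were chosen with earlier results of these data known, and no gene set was tested. All 60 members are named, with the distance of each one's summit, and full replicate values are given for the 3 strongest of each family. The alternatives tried were other peak lists, promoter windows, assignments and symbols. Assignment was checked on simulated summits.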

Additional observations from a re-analysis of the deposited data

How the results depend on the processing

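With single alternatives, 42 of 43 counts of bound members, over all and by family, stayed within 1.5 times the reported count. Leaving out a replicate, by taking the 6312 strongest peaks of the other, gave 33 to 36 bound members in all, 19 to 20 vps, 3 snx each time and 11 to 13 vha. The exception was an alternative chosen after seeing the data, in which a peak had to lie in no other promoter and 18 of 60 members were bound, against 10.1% of all genes. Its counts by family are not among the 43. It left 9 vps, 1 snx and 8 vha genes bound, compared with 20, 3 and 12 reported. The share of all members bound was 2.02 to 3.40 times that of all genes over the alternatives, lowest with the whole pooled relaxed list. By family it ran from 1.65 times (snx, the same list) to 3.83 times (vps, close same-strand neighbours left out). The nearest 5′ end alone left 27 members and the wider promoter gave 43. The median score was 133 at matched summits in replicate 1 and 125 in replicate 2, which are other score scales. Symbols of Ensembl and the first gene of a run were also added after seeing the data, and were counted over all members only. No paired analysis was possible because the series has 1 group.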
